A study of Homo sapiens with 16 samples.

Results

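The enzymes that write and erase DNA methylation, with the adaptors that bring the maintenance enzyme to DNA, were followed by name in melanoma cells treated with corin. The 8 genes were *DNMT1*, *DNMT3A*, *DNMT3B*, *UHRF1*, *UHRF2*, *TET1*, *TET2* and *TET3*, chosen by symbol from the 34228 genes of the count table. All 8 were in the table and all 8 passed the filter on low counts in every comparison.

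DNMT1 copies the methylation of cytosines in CpG pairs onto the new strand after DNA replication, and UHRF1 recognises the half-methylated sites and brings DNMT1 to them. UHRF2 is a paralog of UHRF1 that binds similar marks and does not take over its maintenance role. DNMT3A and DNMT3B methylate sites that carried no mark, and TET1, TET2 and TET3 oxidise methylcytosine, which starts its removal. In melanoma, loss of the oxidised mark is a well-known feature of tumor tissue.

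RNA-Seq was carried out on poly(A) RNA of 451Lu-R and 1205Lu-R, derivatives of the BRAF-mutant human melanoma lines 451Lu and 1205Lu that had been selected for resistance to BRAF inhibitors (BRAFi-R) by growth over months in rising doses of PLX4032 (vemurafenib). Corin is a synthetic inhibitor of the CoREST complex that blocks both of its enzymes, the histone deacetylases HDAC1 and HDAC2 and the histone demethylase LSD1. Each line was kept for 24 hours with corin (2.5 μM) or with its solvent DMSO, and each of these 4 groups had 2 libraries. The other 8 of the 16 samples received 5 μM PLX4032 with or without corin, have no counts per library here and were not analysed. All cells share the BRAF-mutant background and the selection in PLX4032, and BRAFi-R cultures were otherwise kept in that drug. Each model is a single resistant line in culture, so a difference between 451Lu-R and 1205Lu-R is one between these lines. Nothing in the labels says that the replicates came from separate cultures, so the p-values measure only the spread between these libraries, which may be technical.

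Totals ran from 9516687 to 11797788 estimated counts per library. The lines carried the markers of different melanoma states. Over 8 genes of the melanocyte lineage, 451Lu-R libraries summed to 13058 and 13053 CPM (counts scaled to the same library total) with DMSO. With corin they summed to 12170 and 12183 CPM. The 1205Lu-R libraries summed to 8.60 to 26.0 CPM and held no count of the defining genes *SOX10* and *TYR*. In 451Lu-R most of the sum was *PMEL*, at a mean of 8045 CPM with DMSO and 7504 CPM with corin. *MITF* was at 756 and 298 CPM there, *SOX10* at 723 and 243, *MLANA* at 1107 and 694 and *DCT* at 1590 and 2778. *TYR* was at 433 and 340 CPM, *S100B* at 396 and 316 and *TYRP1* at 4.69 and 3.25. A list of 5 genes of undifferentiated melanoma summed to 1552 and 1553 CPM in 1205Lu-R with DMSO and 860.4 and 869.5 CPM with corin. In 451Lu-R it summed to 14.6 and 14.7 CPM with DMSO and 392 and 399 CPM with corin. The latter was mostly *NGFR*, at a mean of 1.01 CPM with DMSO and 365 CPM with corin, while *AXL* reached 2.47 CPM. *WNT5A* and *EGFR* also had higher means with corin there, and *FOSL1* did not. In 1205Lu-R *NGFR* rose as well, from a mean of 6.09 to 198 CPM. The means of *AXL* (999.6 to 465 CPM), *WNT5A* (201 to 36.7), *FOSL1* (245 to 73.5) and *EGFR* were lower with corin there. Markers of other cells also moved with corin. The fibroblast list summed to 48.2 and 51.8 CPM with DMSO and 159.8 and 163 CPM with corin in 451Lu-R cells, where 4 of 6 genes rose (*COL1A1*, *DCN*, *LUM* and *PDGFRA*). In 1205Lu-R cells it summed to 348 and 351 CPM with DMSO and 182 and 185 CPM with corin, mostly *PDGFRA* and *PDGFRB*, which fell there. The leukocyte list went from 63.8 and 67.2 to 96.4 and 97.0 CPM in 451Lu-R cells and from 11.0 and 11.1 to 13.2 and 14.5 CPM in 1205Lu-R, mostly *CD68*. The endothelial list went from 1.28 and 1.40 to 8.73 and 9.43 CPM in 451Lu-R cells and from 11.1 and 11.2 to 23.4 and 27.0 CPM in 1205Lu-R. These higher sums came from *VWF*, which rose in both lines, in 1205Lu-R from a mean of 1.38 to 18.01 CPM. *PECAM1*, most of the sum in 1205Lu-R with DMSO, went the other way there, from a mean of 9.78 to 7.16 CPM. The keratinocyte list was at 0.351 and 0.492 CPM with DMSO and 8.29 and 8.46 CPM with corin in 451Lu-R cells, where *KRT14* and *TP63* rose, and at 1.03 CPM or less in 1205Lu-R. *PTPRC*, *COL3A1*, *KRT5* and *CDH5* were at or near 0 in every library, as was *PECAM1* in 451Lu-R. The part of these markers in the results was not tested. In bulk RNA, fewer cells of one kind and less RNA per cell cannot be told apart, which holds for every level below.

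The genes lie on 6 chromosomes (GENCODE 44, GRCh38). *DNMT1* (ENSG00000130816) spans chr19:10133342-10231286 on the minus strand and *UHRF1* (ENSG00000276043) chr19:4903080-4962154 on the plus strand. *DNMT3A* (ENSG00000119772) lies at chr2:25227855-25342590 on the minus strand and *TET3* (ENSG00000187605) at chr2:73984910-74108176 on the plus strand. *DNMT3B* (ENSG00000088305) spans chr20:32762385-32809359, *UHRF2* (ENSG00000147854) chr9:6413151-6507054, *TET1* (ENSG00000138336) chr10:68560337-68694487 and *TET2* (ENSG00000168769) chr4:105145875-105279816, all on the plus strand. The annotated spans of some overlap those of other genes, and whether exons are shared was not tested. The annotated span of *DNMT1* contains *S1PR2* on the same strand, and the count table lists the sphingosine phosphate receptor gene *S1PR2* separately at 5.29 to 11.0 CPM. *TET3* overlaps an unnamed gene on its own strand that the table also lists, while *UHRF2*, *TET2* and *TET3* have antisense genes and *DNMT1* overlaps the microRNA gene *MIR4322* on the other strand. Whether the libraries kept strand is not given in the sources used here, so reads of a gene and its antisense partner cannot be told apart.

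The stretches around the start site are shown for 3 members, the maintenance enzyme and both UHRF genes, because they hold short words of the E2F consensus, the sequence bound by the E2F factors of the S-phase program. The 6 words searched on both strands were TTTCCCGC, TTTGGCGC, TTTCGCGC, TTCCCGCC, TTGGCGCC and TTCGCGCC, some of which can overlap each other. Each sequence runs 5′ to 3′ on the strand of the gene, from 120 bases before the RefSeq start (GRCh38.p14) through 10 bases from it, with matches to these words on either strand in capitals. They lie at chr19:10194944-10195073 (minus strand) for *DNMT1*, chr19:4909381-4909510 (plus strand) for *UHRF1* and chr9:6413079-6413208 (plus strand) for *UHRF2*.
DNMT1: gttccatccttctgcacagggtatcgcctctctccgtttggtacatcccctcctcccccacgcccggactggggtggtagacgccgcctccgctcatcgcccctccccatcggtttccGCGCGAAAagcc
UHRF1: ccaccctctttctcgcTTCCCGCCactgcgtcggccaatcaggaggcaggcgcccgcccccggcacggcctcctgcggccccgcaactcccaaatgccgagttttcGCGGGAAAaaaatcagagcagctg
UHRF2: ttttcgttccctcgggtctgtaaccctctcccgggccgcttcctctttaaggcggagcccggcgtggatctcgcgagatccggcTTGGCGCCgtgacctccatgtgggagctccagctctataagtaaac

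Counted with the first transcribed base as 0, the match in *DNMT1* covered bases -2 to 5, those in *UHRF1* bases -104 to -97 and -14 to -7, and that in *UHRF2* bases -36 to -29. RefSeq windows from 250 bases before to 50 bases from a start were available at the main start of 7 members, all but *DNMT3B*. The main-start windows of *DNMT3A*, *TET1*, *TET2* and *TET3* held none of these words, which says nothing about the factors. Over all genes, 2237 of 35116 such windows (6.37%) held at least 1 match. A total of 7 motifs, the E2F words included, were searched in the same windows. The CCAAT box (CCAAT, in 34.6% of all windows) was found in that of *UHRF1*, and the word GCGCATGC of the factor NRF1 (3.05%) in that of *DNMT1*. The GC box (GGGCGG, 45.0%), TTTGAA of cell cycle genes (15.2%), TGACGTCA of cyclic AMP response elements (1.85%) and the AP-1 words TGACTCA and TGAGTCA (4.95%) were the others. At the main starts the GC box was found 3 times in the window of *DNMT3A*, 2 times each in those of *UHRF1* and *UHRF2*, 5 times in that of *TET2* and 3 times in that of *TET3*, and the last 3 motifs were not found. The main-start windows held from 10 CpG pairs (*TET1*) to 46 (*DNMT3A*) and 45 (*TET3*), where the median over all windows was 14. The motifs were chosen with the expression results known, and a match is a description of the letters only.

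Levels of different genes were compared as CPM per kilobase of the main transcript. Their order depends on the lengths used, and which transcripts were expressed was not tested. In 451Lu-R with DMSO, *DNMT1* was the most abundant member at 27.3 ± 2.12 CPM per kilobase (SD, n = 2). It was followed by *UHRF1* at 12.4 ± 0.794, *UHRF2* at 7.06 ± 0.950 and *DNMT3A* at 3.34 ± 0.0417 CPM per kilobase. *TET2* at 2.13 ± 0.0390 and *TET3* at 2.13 ± 0.0448 CPM per kilobase did not differ beyond their spread. Below them stood *DNMT3B* at 1.90 ± 0.00329 and *TET1* at 0.459 ± 0.0168 CPM per kilobase. Thus *DNMT1* and the UHRF genes led, the de novo enzymes, *TET2* and *TET3* lay between 1.90 and 3.34, and *TET1* was the scarcest.

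In 1205Lu-R with DMSO the adaptor stood above the enzyme per kilobase, while in CPM *DNMT1* (mean 243) was above *UHRF1* (mean 223). *UHRF1* was at 57.3 ± 0.123 and *DNMT1* at 46.0 ± 0.715 CPM per kilobase, with *UHRF2* next at 14.4 ± 0.299. The de novo enzyme *DNMT3A* was at 1.84 ± 0.224 CPM per kilobase, *TET2* at 1.48 ± 0.00431 and *TET3* at 1.30 ± 0.0516. *DNMT3B* at 0.419 ± 0.0826 CPM per kilobase was close to *TET1* at 0.284 ± 0.000540, although their libraries did not overlap. *DNMT3B* rested there on 22 and 16 estimated counts and *TET1* on 29 and 28, so that both levels are less precise than those of the other members.

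The orders differed with corin. In 451Lu-R with corin, *DNMT1* stood at 16.8 ± 0.0945 CPM per kilobase, *UHRF2* at 6.22 ± 0.146 and *UHRF1* at 2.89 ± 0.136, so the UHRF paralogs had exchanged places. *DNMT3B* at 2.37 ± 0.131 CPM per kilobase lay above *DNMT3A* at 1.62 ± 0.108, again the reverse of DMSO, with *TET3* at 1.85 ± 0.0172 between them. In 1205Lu-R with corin, *DNMT1* at 32.5 ± 0.0520 CPM per kilobase was above *UHRF1* at 22.5 ± 0.412 and *UHRF2* at 7.53 ± 0.209. Next came *TET3* at 1.72 ± 0.190 CPM per kilobase, then *DNMT3B* at 1.21 ± 0.101 and *DNMT3A* at 1.07 ± 0.0664. *DNMT3B* and *DNMT3A* differed there by little more than their spread, with *DNMT3B* libraries at 1.28 and 1.14 CPM per kilobase and *DNMT3A* libraries at 1.11 and 1.02. *TET2* at 0.547 ± 0.0312 and *TET1* at 0.244 ± 0.0335 CPM per kilobase were the lowest.

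**Figure D1:**
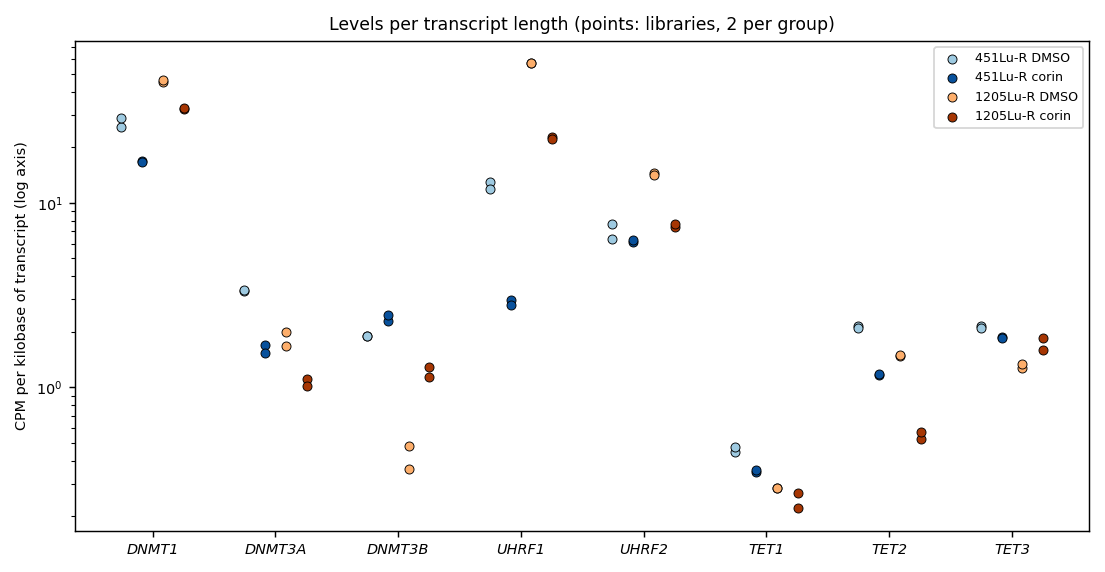
Level of each member (x axis) in CPM per kilobase of transcript on a log axis (y axis), each point 1 of the 2 libraries of the 4 groups named in the legend. *DNMT1* was highest in 3 groups, *UHRF1* at 57.3 CPM per kilobase led in 1205Lu-R with DMSO, and *TET1* was lowest in all 4.

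Corin was compared with DMSO in either line with the quasi-likelihood test of edgeR (2-sided), with p-values adjusted over all genes tested by Benjamini-Hochberg and a gene called at an adjusted p under 0.05. In 451Lu-R, 6 of 8 members fell and 0 rose (*DNMT3B* and *TET1* did not pass, and 0 rose at an unadjusted p under 0.05 or by DESeq2), while 38.6% of the 14530 genes tested were called lower and 41.3% higher. Of these 6, *DNMT3A* and *UHRF1* fell at least 2-fold, and 0 members rose at least 2-fold, against 13.3% of all genes lower and 22.2% higher by that rule. DESeq2 called 4 members lower in 451Lu-R, without *UHRF2* and *TET3*, whose small falls are described below with the libraries they rest on. The median log2 fold change of the 8 members was -0.56, and that of all genes tested was 0.03. In 1205Lu-R, 5 members fell and 2 rose (*DNMT3B* and *TET3*), while 37.8% of the 14563 genes tested were called lower and 40.4% higher. *UHRF1* and *TET2* fell at least 2-fold and *DNMT3B* rose at least 2-fold there, against 9.80% of all genes lower and 22.0% higher. The members' median log2 fold change was -0.63, beside 0.03 for all genes.

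**Figure D2:**
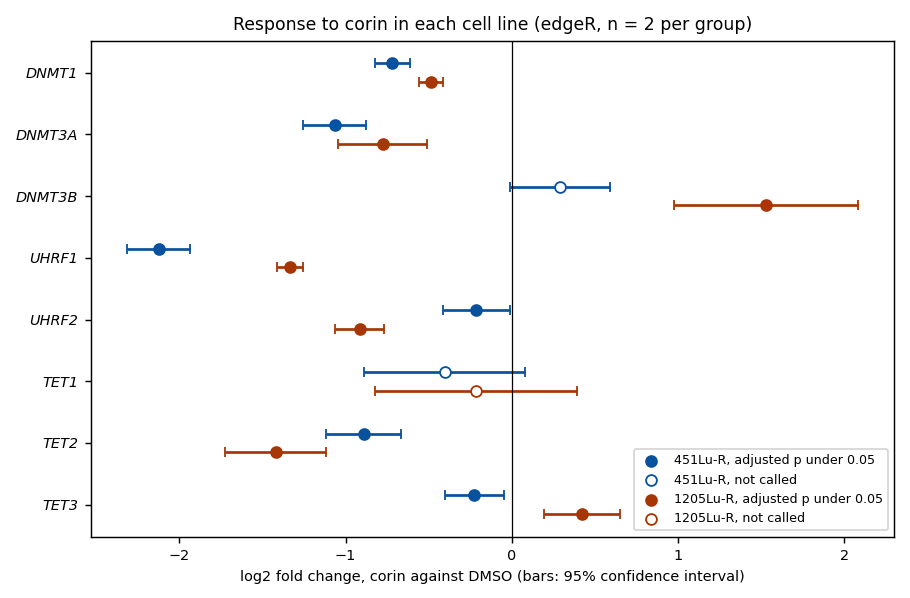
Log2 fold change of each member (rows) with corin against DMSO (x axis), with bars for the 95% confidence interval of edgeR's quasi-likelihood fit, 2 libraries per group, and filled points for an adjusted p under 0.05. *UHRF1* fell most in 451Lu-R (-2.12), *TET2* in 1205Lu-R (-1.42), and *DNMT3B* was the member that rose most (1.53 in 1205Lu-R).

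Among *DNMT1* and the UHRF genes, *UHRF1* showed the widest change. In 451Lu-R it was at 50.5 and 46.1 CPM with DMSO and at 11.6 and 10.9 CPM with corin. In 1205Lu-R it was at 223 and 224 CPM with DMSO and at 89.0 and 86.7 CPM with corin. The groups did not overlap in either line, and 1205Lu-R libraries with corin still held more *UHRF1* than 451Lu-R libraries with DMSO. In 451Lu-R cells, *UHRF1* fell by 2.12 on the log2 scale (SE 0.0908, adjusted p = 2.87e-14, edgeR), a 4.36-fold lower level. In 1205Lu-R cells it fell by 1.33 (SE 0.0377, adjusted p = 2.07e-18, edgeR), a 2.52-fold lower level. Ranked from the most reduced gene upwards, *UHRF1* stood at percentile 2.33 of the genes tested in 451Lu-R and at percentile 4.92 in 1205Lu-R.

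*DNMT1*, the maintenance methyltransferase itself, was at 136 and 152 CPM with DMSO and at 89.0 and 88.3 CPM with corin in 451Lu-R cells. In 1205Lu-R cells its level was 239.9 and 245 CPM with DMSO and 171 and 172 CPM with corin. Corin libraries thus lay below DMSO libraries of the same line in each case. In 451Lu-R cells, *DNMT1* fell by 0.72 on the log2 scale (SE 0.0506, adjusted p = 8.34e-11, edgeR). In 1205Lu-R cells it fell by 0.49 (SE 0.0338, adjusted p = 1.55e-11, edgeR). These falls were 1.65-fold and 1.40-fold, smaller than those of *UHRF1*. *S1PR2*, which lies inside the annotated span of *DNMT1*, also had a lower level with corin. Its log2 difference was -0.55 (edgeR adjusted p = 0.00760) and -0.40 (adjusted p = 0.0228) in the same order of lines, and the share of reads that could belong to either gene was not tested.

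*UHRF2* was at 27.6 and 22.8 CPM with DMSO and 21.9 and 22.6 CPM with corin in 451Lu-R, so that the second DMSO library lay just above the corin libraries. In 1205Lu-R it was at 52.1 and 50.6 CPM with DMSO and at 26.4 and 27.5 CPM with corin, far apart. In 1205Lu-R cells, *UHRF2* fell by 0.91 on the log2 scale (SE 0.0712, adjusted p = 1.11e-10, edgeR). In 451Lu-R cells it fell by 0.21 (SE 0.0965, adjusted p = 0.0488, edgeR), and this call did not hold under DESeq2 (adjusted p = 0.265). Without the first DMSO library of 451Lu-R, the *UHRF2* difference was -0.08 (adjusted p = 0.551, edgeR), without the first corin library -0.18 (adjusted p = 0.154) and without the second -0.23 (adjusted p = 0.0591).

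The de novo enzymes moved apart. *DNMT3A* was at 31.2 and 31.8 CPM with DMSO and at 16.0 and 14.5 CPM with corin in 451Lu-R cells. In 1205Lu-R cells it was at 18.8 and 15.8 CPM with DMSO and at 10.5 and 9.59 CPM with corin. The groups did not overlap in either line, and the DMSO libraries of 1205Lu-R were close to the corin libraries of 451Lu-R. In 451Lu-R cells, *DNMT3A* fell by 1.07 on the log2 scale (SE 0.0909, adjusted p = 1.64e-09, edgeR), and in 1205Lu-R cells by 0.78 (SE 0.129, adjusted p = 1.16e-05).

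*DNMT3B*, the second de novo methyltransferase, was at 8.25 and 8.27 CPM with DMSO and at 9.87 and 10.7 CPM with corin in 451Lu-R cells. In 1205Lu-R cells it was at 2.07 and 1.56 CPM with DMSO and at 5.55 and 4.93 CPM with corin, corresponding to 22 and 16 against 54 and 56 estimated counts. Corin libraries were above DMSO libraries in both lines, by a narrow margin in 451Lu-R. In 1205Lu-R cells, *DNMT3B* rose 2.88-fold, which is 1.53 on the log2 scale (SE 0.266, adjusted p = 2.16e-05, edgeR). In 451Lu-R cells the log2 difference was 0.29 (95% confidence interval -0.01 to 0.59) and did not pass (adjusted p = 0.0727, edgeR).

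Of the erasers, *TET2* showed the largest change in both lines. It was at 20.7 and 20.2 CPM with DMSO and at 11.1 and 11.3 CPM with corin in 451Lu-R cells. In 1205Lu-R cells its level was 14.20 and 14.26 CPM with DMSO and 5.03 and 5.46 CPM with corin. The groups stood well apart in each line. With corin, *TET2* fell by 0.89 on the log2 scale (SE 0.109, adjusted p = 3.19e-07, edgeR) in 451Lu-R cells. In 1205Lu-R cells it fell by 1.42 (SE 0.146, adjusted p = 1.14e-08, edgeR), a 2.67-fold lower level and percentile 4.09 of the genes tested.

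*TET3*, best known for oxidising the paternal genome in the fertilised egg, differed in direction between the lines. It was at 26.1 and 25.3 CPM with DMSO and 22.5 and 22.2 CPM with corin in 451Lu-R cells, and at 15.2 and 16.1 CPM with DMSO and 19.1 and 22.4 CPM with corin in 1205Lu-R. The groups did not overlap in either line, and the corin libraries of 1205Lu-R were spread more widely than the others. With corin, *TET3* rose by 0.42 on the log2 scale (SE 0.110, adjusted p = 0.00146, edgeR) in 1205Lu-R cells. In 451Lu-R cells it fell by 0.22 (SE 0.0853, adjusted p = 0.0215, edgeR), a call that did not hold under DESeq2 (adjusted p = 0.204). Without the first DMSO library, the first corin library or the second corin library of 451Lu-R, the *TET3* difference was -0.22, -0.23 and -0.21 with edgeR adjusted p of 0.0726, 0.0714 and 0.0832.

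*TET1* was the least expressed member per kilobase in every group, with 24 to 49 estimated counts per library. It was at 4.30 and 4.53 CPM with DMSO and 3.35 and 3.42 CPM with corin in 451Lu-R cells, and at 2.73 and 2.74 CPM with DMSO and 2.57 and 2.11 CPM with corin in 1205Lu-R. The corin libraries were lower in each line, but neither difference passed. For *TET1* the log2 difference was -0.40 (95% confidence interval -0.89 to 0.08, adjusted p = 0.116, edgeR) in 451Lu-R and -0.22 (-0.82 to 0.39, adjusted p = 0.506) in 1205Lu-R.

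**Figure D3:**
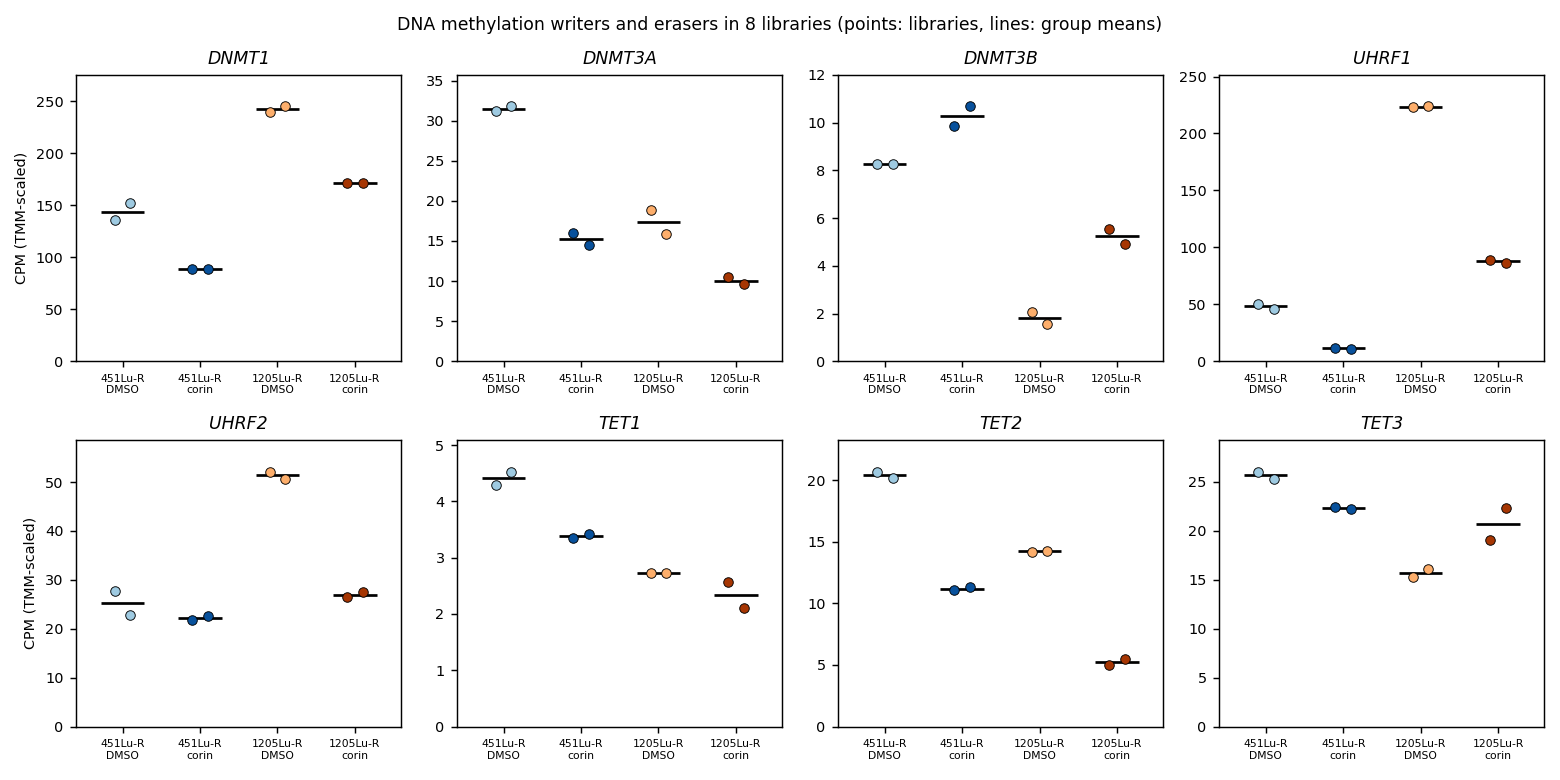
CPM of each member (y axes, starting at 0) in the 4 groups (x axes), with 1 point per library and a line at the mean of each group of 2. *UHRF1* fell from 50.5 and 46.1 to 11.6 and 10.9 CPM in 451Lu-R, whereas *DNMT3B* was at 2.07 and 1.56 CPM with DMSO and at 5.55 and 4.93 CPM with corin in 1205Lu-R.

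Ratios within a library describe the balance between members. They are given without a test, since an exact permutation test of 2 against 2 libraries cannot give a p below 0.333. Per kilobase, *UHRF1* over *DNMT1* was 0.457 ± 0.0645 (SD, n = 2) with DMSO and 0.172 ± 0.00713 with corin in 451Lu-R cells. In 1205Lu-R cells the ratio of *UHRF1* to *DNMT1* was 1.25 ± 0.0167 and 0.694 ± 0.0138. The ratio of *UHRF1* to its paralog *UHRF2* was 1.77 ± 0.125 with DMSO and 0.465 ± 0.0328 with corin in 451Lu-R cells, and 3.99 ± 0.0916 and 2.99 ± 0.138 in 1205Lu-R. In both lines, every corin library held less *UHRF1* relative to its partner and to its paralog than every DMSO library.

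Between the de novo enzymes, the ratio of *DNMT3A* to *DNMT3B* per kilobase was 1.76 ± 0.0189 with DMSO and 0.685 ± 0.0836 with corin in 451Lu-R (SD, n = 2). In 1205Lu-R it was 4.42 ± 0.337 and 0.883 ± 0.0187. Per kilobase, *DNMT3B* was thus the more abundant of the pair in all 4 corin libraries and in 0 of 4 DMSO libraries. This order rests on main transcripts of 9421 bases for *DNMT3A* and 4336 bases for *DNMT3B*. In CPM, *DNMT3A* was above *DNMT3B* in every corin library, and which transcripts were expressed was not tested. *DNMT1* nevertheless remained the bulk of the methyltransferase RNA per kilobase, at 83.8% ± 0.935 and 80.8% ± 0.177 of the 3 enzymes in 451Lu-R cells and 95.3% ± 0.675 and 93.5% ± 0.460 in 1205Lu-R. The share of *DNMT3B* was 5.86% ± 0.379 with DMSO and 11.4% ± 0.670 with corin in 451Lu-R cells, and 0.869% ± 0.178 and 3.47% ± 0.279 in 1205Lu-R.

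Among the erasers, *TET2* and *TET3* held like shares of the summed TET level per kilobase with DMSO. The share of *TET3* was 45.1% ± 0.308 with DMSO and 54.9% ± 0.547 with corin in 451Lu-R cells, and 42.4% ± 0.902 and 68.4% ± 2.46 in 1205Lu-R (SD, n = 2). That of *TET2* was 45.2% ± 0.186 and 34.6% ± 0.398 in 451Lu-R cells and 48.4% ± 0.749 and 21.8% ± 0.392 in 1205Lu-R cells. Per kilobase, *TET3* led the family in all 4 corin libraries. It also did so narrowly in the first DMSO library of 451Lu-R, at 45.32% against 45.29% for *TET2*. This order rests on main transcripts of 12060 bases for *TET3* and 9589 bases for *TET2*. In CPM, *TET3* was above *TET2* in every library, those with DMSO included. The summed TET level was 4.72 ± 0.0670 and 3.37 ± 0.00233 CPM per kilobase in 451Lu-R cells and 3.07 ± 0.0564 and 2.51 ± 0.188 in 1205Lu-R. The summed methyltransferases were at 32.5 ± 2.16 and 20.8 ± 0.0713 CPM per kilobase in 451Lu-R cells and at 48.3 ± 0.408 and 34.8 ± 0.115 in 1205Lu-R. The ratio of the methyltransferase sum to the TET sum was 6.90 ± 0.556 with DMSO and 6.17 ± 0.0254 with corin in 451Lu-R cells, and 15.7 ± 0.156 and 13.9 ± 1.09 in 1205Lu-R.

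**Figure D4:**
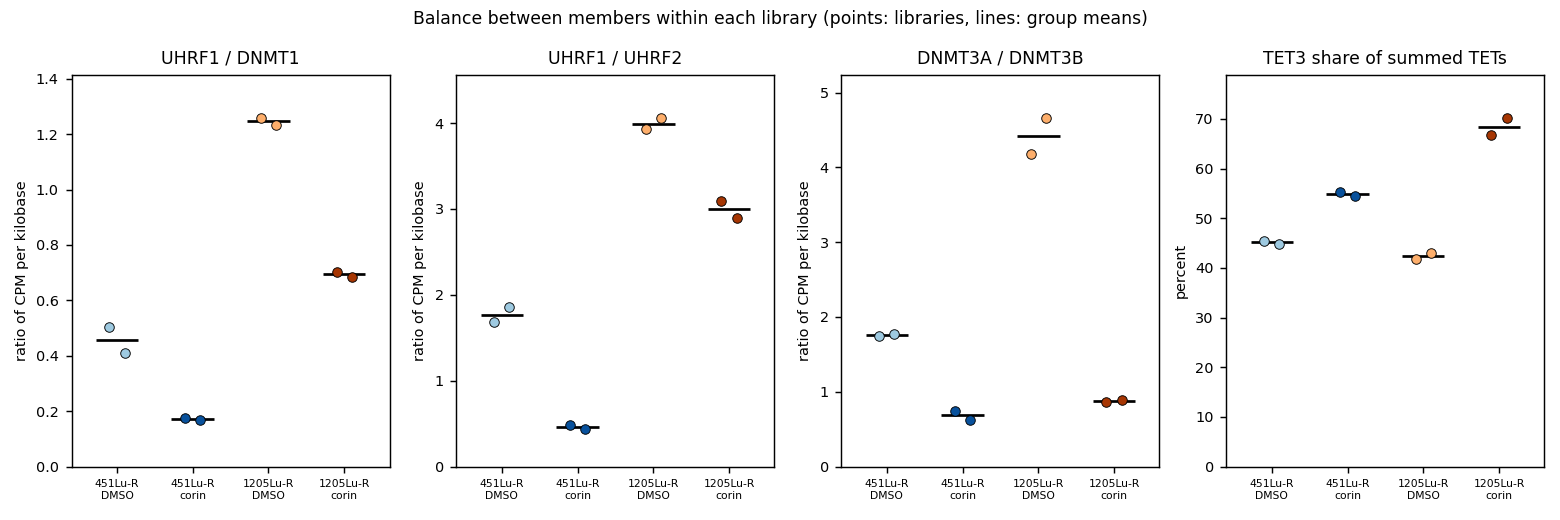
Ratios of CPM per kilobase between members, and the share of *TET3* in the summed TETs in percent (y axes, starting at 0), in the 4 groups (x axes), with 1 point per library and a line at the mean of 2. *UHRF1* over *DNMT1* went from 0.457 to 0.172 in 451Lu-R and from 1.25 to 0.694 in 1205Lu-R, and the *TET3* share reached 68.4% in 1205Lu-R with corin.

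Whether the lines responded differently was tested with an interaction term over the 8 libraries (edgeR, adjusted over 16062 genes). The response differed for 6 of 8 members, all but *DNMT3A* and *TET1*, where 49.7% of all genes were called. The difference in log2 response (451Lu-R subtracted from 1205Lu-R) was 1.201 for *DNMT3B* (SE 0.289, adjusted p = 0.00152), which rose in 1205Lu-R. It was 0.75 for *UHRF1* (SE 0.100, adjusted p = 1.80e-06), whose fall was smaller in 1205Lu-R, and 0.61 for *TET3* (SE 0.136, adjusted p = 0.000725). *UHRF2* had the largest difference in the other direction, at -0.74 (SE 0.122, adjusted p = 2.95e-05), its fall being deeper in 1205Lu-R.

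For *TET2* the difference in response was -0.57 (SE 0.179, adjusted p = 0.0118, edgeR). Without the first corin library of 1205Lu-R it was -0.49 (adjusted p = 0.0668), and DESeq2 gave an adjusted p of 0.0903. For *DNMT1* it was 0.19 (SE 0.0631, adjusted p = 0.0145, edgeR). Without the second DMSO library of 451Lu-R this became 0.11 (adjusted p = 0.155), and without the first DMSO library of 1205Lu-R 0.17 (adjusted p = 0.0572). The differences of *DNMT3A* (0.25, 95% confidence interval -0.08 to 0.58, adjusted p = 0.203) and *TET1* (0.15, -0.61 to 0.91, adjusted p = 0.785) did not pass.

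The lines also differed without corin. With DMSO, 3 members were higher in 1205Lu-R than in 451Lu-R and 5 were lower, where 41.0% of the 14104 genes tested were called higher and 41.5% lower. *DNMT1* and both UHRF genes were higher in 1205Lu-R, *UHRF1* by 2.19 (SE 0.0458), *UHRF2* by 1.001 (SE 0.0799) and *DNMT1* by 0.74 (SE 0.0412) on the log2 scale. The de novo enzymes and the erasers were lower, from -2.19 for *DNMT3B* (SE 0.227) and -0.88 for *DNMT3A* (SE 0.0959) to -0.54 for *TET2* (SE 0.106). *TET3* differed by -0.73 (SE 0.0976). For *TET1* the difference was -0.71 (SE 0.239, adjusted p = 0.00921, edgeR), and it was -0.70 (adjusted p = 0.0536) without the first DMSO library of 1205Lu-R and not called by DESeq2 (adjusted p = 0.147).

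With corin, the same 3 members were higher in 1205Lu-R and 3 were lower, where 39.0% of 15363 genes were called higher and 40.2% lower. This comparison uses the corin libraries of the tests above, and the one with DMSO uses their DMSO libraries. *UHRF1* differed between the lines by 2.96 (SE 0.0766), *DNMT1* by 0.95 (SE 0.0369) and *UHRF2* by 0.28 (SE 0.0810) on the log2 scale, the last not called by DESeq2 (adjusted p = 0.112). *TET2* differed by -1.09 (SE 0.164), *DNMT3B* by -0.98 (SE 0.171) and *DNMT3A* by -0.61 (SE 0.128). *TET3* (-0.10, 95% confidence interval -0.30 to 0.10, adjusted p = 0.326, edgeR) and *TET1* (-0.54, -1.13 to 0.05, adjusted p = 0.0836) did not pass.

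Other genes of the pathway were counted from lists, which, like the members, were chosen with results of these data known. Genes named from them below without a value, and *LIG1*, *CDCA7L* and *TEX14*, were picked after their values were seen, to give small counts in full. Of 9 partners of DNA methylation maintenance tested, 4 fell and 3 rose in 451Lu-R cells and 6 fell and 2 rose in 1205Lu-R, with median log2 fold changes of 0.02 and -0.57. *CDCA7*, which with the remodeler HELLS opens chromatin for methylation, fell by 3.19 in 451Lu-R (SE 0.156) and by 1.62 in 1205Lu-R (SE 0.0606). *HELLS* fell by 0.50 and 0.57. *QSER1*, a protein that keeps DNMT3 enzymes from certain regions, fell by 0.91 and 1.11, and *LIG1*, the ligase that joins newly copied strands, by 1.10 and 0.84. The sliding clamp gene *PCNA* differed by 0.02 in 451Lu-R (adjusted p = 0.591, edgeR) and fell by 0.59 in 1205Lu-R. The deubiquitinase gene *USP7*, whose product stabilises UHRF1 and DNMT1, rose by 0.19 in 451Lu-R and fell by 0.57 in 1205Lu-R. *TRDMT1*, a methyltransferase of transfer RNA despite its likeness to DNMT enzymes, rose by 1.32 and 0.84, and *CDCA7L*, the paralog of *CDCA7*, by 0.36 and 0.78.

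Supply of the methyl donor, S-adenosylmethionine, was followed with 15 genes listed for the methionine and folate cycles. The list holds *AHCYL1* and *AHCYL2*, whose part in this supply was not tested. Of the 15 genes, 9 fell and 2 rose (*MTRR* and *AHCYL2*) in 451Lu-R (median -0.22). In 1205Lu-R 8 fell and 6 rose (median -0.10). *MAT2A*, which makes the donor, fell by 0.70 in 451Lu-R cells and by 0.13 in 1205Lu-R, the latter not called with library size only (adjusted p = 0.135, edgeR). Thymidylate synthase (*TYMS*) fell by 1.78 and 1.60, serine hydroxymethyltransferase *SHMT2* by 1.53 and 1.05, and methionine synthase (*MTR*) by 1.34 and 0.48. Several of these serve nucleotide synthesis as well as methylation.

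Of the genes listed as base excision and demethylation partners of the TETs, 14 were tested in 451Lu-R, where 9 fell and 5 rose (median -0.38). In 1205Lu-R 6 of 15 fell and 5 rose (median -0.02). *POLB* rose in both lines, *NEIL2* and *PARP1* in 451Lu-R and *OGT* and *CXXC4* in 1205Lu-R, beside *GADD45A* and *GADD45B*. *TDG*, the glycosylase that removes the oxidised bases, fell by 0.24 in 451Lu-R (adjusted p = 0.0137, edgeR) and was at -0.02 in 1205Lu-R (adjusted p = 0.880). The *TDG* call did not hold with DESeq2 (adjusted p = 0.118), without the first DMSO library of 451Lu-R (-0.19, adjusted p = 0.0754, edgeR) or without its second corin library (-0.14, adjusted p = 0.202). The uracil glycosylase gene *UNG* fell by 2.94 and 3.59, whereas the stress genes *GADD45B* (3.32 and 3.14) and *GADD45A* (2.93 and 1.52) rose in both. Among 12 enzymes that make or use 2-oxoglutarate and its competitors, 7 fell and 2 rose in 451Lu-R (median -0.25) and 7 fell and 4 rose in 1205Lu-R (median -0.32). *OGDH*, which consumes 2-oxoglutarate, rose by 1.28 and 1.18 and *SDHA*, a subunit of succinate dehydrogenase, by 0.67 and 0.96, while *IDH3B* fell by 1.02 and 0.87. The others that rose were *IDH1* and *IDH2* in 1205Lu-R.

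Genes listed as readers of CpG sites are given beside all genes tested, as for every list here. Of all genes tested, 38.6% were called lower and 41.3% higher in 451Lu-R cells and 37.8% and 40.4% in 1205Lu-R. Of 10 genes listed as methyl-CpG readers, 7 fell and 1 rose (*MBD5*) in 451Lu-R cells. In 1205Lu-R 6 fell and 0 rose (edgeR, 0 also at an unadjusted p under 0.05), and the medians were -0.35 and -0.25. Whether each product binds methylated DNA was not tested, and *MBD1* and *MBD4* are each on another list as well. *MBD3*, whose human protein binds methylated DNA only weakly, fell by 1.10 and 1.28 and *ZBTB4* by 0.98 and 0.77, and *ZBTB38* was at -0.11 in 451Lu-R (adjusted p = 0.0641, edgeR) and fell by 1.28 in 1205Lu-R. Of the proteins with a CXXC domain, which binds unmethylated CpG, 6 of 8 fell and 1 rose (*KDM2A*) in 451Lu-R. In 1205Lu-R, 5 of 9 fell and 1 rose (*CXXC4*, which passed the filter there only through its corin libraries). The medians were -0.54 and -0.36. *FBXL19* fell by 1.72 and 2.15, *KMT2B* by 1.21 and 1.54 and *KDM2B* by 1.36 and 0.68.

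Germline genes that promoter methylation keeps silent in body cells stayed near 0. Of 13 listed, 8 were in the table and only *TEX14* passed the filter, with at most 23 estimated counts in a library. *TEX14* was at 0.789 and 0.394 CPM with DMSO and 2.03 and 1.35 CPM with corin in 451Lu-R cells, and at 0 and 0.195 CPM with DMSO and 1.03 and 1.41 CPM with corin in 1205Lu-R. It was called higher with corin in both lines (adjusted p = 0.00722 and 0.000231, edgeR). The remaining 7 had at most 4 estimated counts in any library. DNA methylation itself was not measured in these libraries.

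Genes of the cell cycle were also followed, since cycling cells are known to express *UHRF1* and *DNMT1*. Of 18 genes of S phase, 17 fell and 0 rose in 451Lu-R (edgeR, 0 also at an unadjusted p under 0.05), with a median of -1.22, and 17 fell and 1 rose (*RRM2*) in 1205Lu-R, with a median of -1.36. *MCM5* fell by 1.76 and 2.93, *CCNE2* by 2.30 and 2.63 and *GINS2* by 0.97 and 2.50. Of 15 genes of G2 and M phase, 15 fell in 451Lu-R (median -1.83), while 10 fell and 4 rose (*BUB1*, *CENPE*, *AURKB* and *CDK1*) in 1205Lu-R (median -0.36). *CENPF* fell by 2.45 and 0.45, *PLK1* by 2.39 and 0.90 and *CCNB1* by 2.17 and 0.34. All 15 had a higher response in 1205Lu-R by the interaction term, with a median difference of 1.21 beside -0.01 for all genes. Of the 18 S-phase genes, 4 had a higher and 8 a lower response in 1205Lu-R, with a median difference of -0.19. *UHRF1*, which fell less in 1205Lu-R, had a difference of 0.75, and *UHRF2* one of -0.74. The part of the cell cycle in the changes of the members was not tested.

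**Figure D5:**
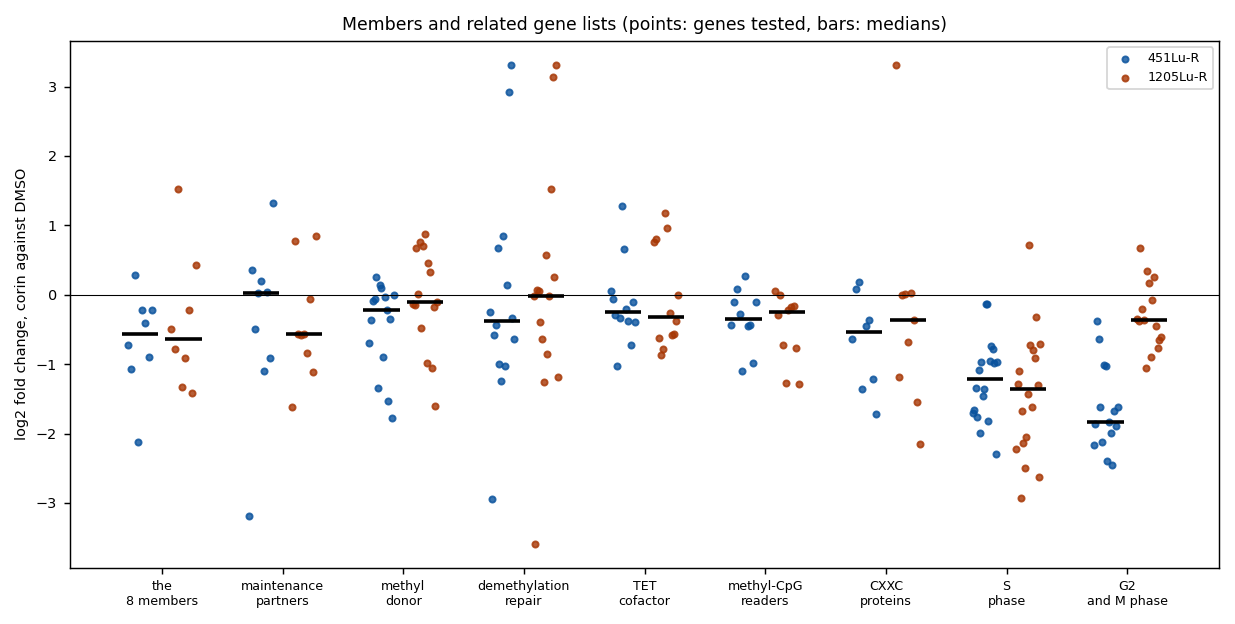
Log2 fold change with corin against DMSO (y axis) of each gene tested in the members and 8 related lists (x axis) for 451Lu-R (blue) and 1205Lu-R (red), with black bars at the medians. The members' medians were -0.56 and -0.63, those of the S-phase list -1.22 and -1.36, and those of the G2 and M list -1.83 and -0.36.

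The genes whose pattern over the 8 libraries was most like that of each member were found among 14433 genes with a mean of at least 1 CPM, as the smallest root mean square difference of log2 CPM centred on each gene's mean. For *UHRF1* they were *FOXM1* (0.162), *IGF2BP3* (0.189) and *PRKAR1B-AS1* (0.195), farther off than for any other member. For *DNMT1* they were *TUBGCP2* (0.0588), *DCAF1* (0.0643) and *CKAP5* (0.0646), and for *UHRF2* *PER2* (0.0899), *MCMBP* (0.0901) and *KIF2A* (0.0918). *DNMT3A* was nearest to *ARID2* (0.0827), *GUF1* (0.0892) and *NKAPD1* (0.0897), and *DNMT3B* to *NCKAP5L* (0.0941), *CLCN3* (0.102) and *EPB41L3* (0.130). The nearest to *TET1* were *CSNK2A2* (0.0619), *SPART* (0.0759) and *OSBPL9* (0.0823), to *TET2* *PEF1* (0.0784), *TMEM11* (0.0832) and *LZIC* (0.103), and to *TET3* *PHKA2* (0.0321), *QARS1* (0.0649) and *MAVS* (0.0757). Between members, the closest pair was *DNMT3A* and *TET2* (0.259), followed by *TET1* and *TET3* (0.278) and *DNMT1* and *UHRF2* (0.281), and the farthest *DNMT3B* and *UHRF1* (2.45). *UHRF1* and *DNMT1*, which act together, were 1.04 apart, although the means of the 4 groups stood in the same order for both. The measure is not scaled, so it grows with the size of a gene's changes as well. With 8 libraries in 4 groups, such likeness follows mainly the 4 group means and is a description.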

How the data were processed

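RNA of 4 groups (451Lu-R or 1205Lu-R, DMSO or corin) was sequenced, with 2 libraries each. Per the submitters' processing notes and the study's methods, the authors trimmed paired reads with Trimmomatic and quantified them with Salmon against the GENCODE 32 transcriptome, and deposited estimated counts per gene, without normalization; versions of these tools are not given in the sources used here. Tables of the authors' own comparison (log2 fold changes and adjusted p-values for PLX4032 plus corin against PLX4032) were not used, and those libraries were not analysed here. Of 34228 gene identifiers, 34052 matched a GENCODE 44 name.

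The estimated counts were rounded to whole numbers and tested with edgeR 4.0.16 in R 4.3.3 (filterByExpr, TMM, quasi-likelihood, 2-sided, Benjamini-Hochberg over all genes tested), on the libraries of each comparison or on all 8 for the interaction. Standard errors are the log2 fold change over the square root of F. CPM use TMM-scaled totals (9516687 to 11797788 estimated counts, factors 0.962 to 1.05), and levels per kilobase use the length of the Ensembl canonical transcript. Motifs were searched in RefSeq promoter windows, and all 19 member windows equalled hg38. The procedure was also run on simulated counts, with far fewer changed genes than were called here. That run does not test the scaling when many genes change. Between replicates, chi-square per degree of freedom was 1.34 to 1.41, so no library was a copy of another.

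The members and lists were chosen with earlier results of these data known. Named were all members, *CDCA7*, *HELLS*, *PCNA*, *USP7*, *MAT2A* and *TDG*, up to 3 genes per list with an adjusted p under 0.05 in a corin comparison, a mean of at least 1 CPM and the largest absolute log2 fold change, and the 3 genes most like each member. A gene of the list around 2-oxoglutarate is not reported here and was left out of its counts. Alternatives were DESeq2 1.42.0, scaling by RLE size factors or by library size only, a filter at a mean of at least 1 CPM or none, all 8 libraries in 1 fit, a replicate block, and leaving out each library in turn.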

Additional observations from a re-analysis of the deposited data

Results flagged for a closer look

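By the interaction term over the 8 libraries (edgeR, adjusted p under 0.05 over all genes tested), the response to corin differed between the lines for 6 members of 8, where 49.7% of all genes were called. The differences in log2 response (451Lu-R subtracted from 1205Lu-R) were 1.201 for *DNMT3B*, 0.75 for *UHRF1*, 0.61 for *TET3*, 0.19 for *DNMT1*, -0.57 for *TET2* and -0.74 for *UHRF2*. *DNMT3B* rose in 1205Lu-R and did not pass in 451Lu-R, *TET3* rose in 1205Lu-R and was at -0.22 in 451Lu-R, *UHRF2* fell in 1205Lu-R and was at -0.21 in 451Lu-R, and *UHRF1*, *DNMT1* and *TET2* fell in both lines. The *TET3* and *UHRF2* differences in 451Lu-R passed with edgeR but not with DESeq2 (adjusted p = 0.204 and 0.265), nor without any 1 of 3 of the 4 libraries. Each line is 1 resistant derivative, so this is a difference between these lines. The calls of *DNMT1* and *TET2* did not hold without 1 of the libraries, as given with the results.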

How the results depend on the processing

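Counts of members called in each direction, and of all genes called, stayed within 1.5 times under every alternative, except that members with a lower response in 1205Lu-R (2) numbered 1 with DESeq2 and 1 with library size only, and 1 to 2 when a library was left out (1 without the first corin library of 1205Lu-R, which removed *TET2*). Members that fell in 451Lu-R numbered 6, and 4 with DESeq2, where *UHRF2* and *TET3* were lost. These calls were also lost with all 8 libraries in 1 fit (adjusted p = 0.0692 for *UHRF2*, and at the threshold of 0.05 for *TET3*), and *UHRF2* with RLE size factors (0.0636) and a mean of at least 1 CPM (0.0558). With library size only, the *TET2* difference in response was lost (adjusted p = 0.121) and that of *DNMT3A* gained (0.46, adjusted p = 0.0176). That scaling moved the median of all genes in the interaction from -0.01 to 0.20 and the share of higher responses among calls from 45.4% to 64.0%. It moved the median from 0.03 to -0.07 for corin in 451Lu-R, where calls went from 6006 higher and 5606 lower to 5527 and 6210, to 0.11 for corin in 1205Lu-R, to -0.12 between the lines with DMSO and to 0.08 with corin.

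Directions that turned with library size only were *PCNA* in 451Lu-R (-0.0783), *TDG* in 1205Lu-R (0.0549), the difference in response of *OGDH* (0.0746) and *HELLS* (0.0990), *FBXL19* (-0.0144) and *MCM5* (-0.0143) between the lines with DMSO, and *TYMS* (0.0357) and *GADD45A* (0.0417) with corin. With a library left out, *TDG* in 1205Lu-R ran from -0.23 to 0.19, the difference in response of *HELLS* from -0.20 to 0.0208 and of *TDG* from -0.0225 to 0.40, and between the lines with corin *TET3* from -0.22 to 0.00511 (without the first corin library of 1205Lu-R) and *GADD45A* from -0.13 to 0.0256. The cause was not tested.

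Same-numbered replicates did not deviate together (correlations of -0.0356 in 451Lu-R, 0.0216 in 1205Lu-R, 0.0362 with DMSO and -0.0199 with corin). Most of the deviation was counting noise (chi-square per degree of freedom 1.34 to 1.41), so the check cannot exclude a small shared effect. With a replicate block, 6 members fell in 451Lu-R, 5 fell and 2 rose in 1205Lu-R, and no member's call changed. A fit without 1 library leaves a lone sample that is assumed to vary like the other groups. Depth limits *TET1* and *DNMT3B* most, the members with fewest counts.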
